A study of Homo sapiens with 2 samples.

Results

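HCT116, an established human colorectal carcinoma cell line, was given CB-5083 at 1 µM or DMSO, its solvent, for 8 h, and stranded mRNA libraries were sequenced. CB-5083 blocks p97 (the product of VCP), an ATPase that extracts ubiquitinated proteins for degradation. There was 1 library per treatment: no replicate check was possible, and no p-value is given. The labels name no other agent or genetic change. The genes described here are the histone demethylases and their JmjC relatives, the histone deacetylases (HDACs) and the sirtuins. They were chosen by symbol: KDM, HDAC, SIRT and JMJD followed by a number, together with JHDM1D, PHF2 and PHF8, without genes on chromosome Y. Of 21115 genes with values, 43 met this rule: 25 demethylases or JmjC proteins, 11 HDACs and 7 sirtuins.

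These enzymes remove methyl or acetyl groups from histones and from other proteins. JmjC enzymes are oxygenases that need iron, oxygen and 2-oxoglutarate, whereas the KDM1 enzymes are oxidases that use FAD. HDACs of classes I, II and IV are zinc enzymes, of which class I works in nuclear corepressor complexes and class IIa shuttles between nucleus and cytoplasm and binds MEF2 transcription factors. Sirtuins use NAD, and some of them act in mitochondria on metabolic enzymes in place of histones.

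Of 20 demethylase or JmjC genes that reached 5 CPM in a library, 4 were at least 2-fold higher with CB-5083 than with DMSO. Of 6 such deacetylase genes, 1 was at least 2-fold lower. Over all genes at that level, 7.22% were higher and 4.91% lower. The higher demethylase genes were KDM4A, KDM6A, KDM5B and JMJD1C, by 4.04-fold, 2.83-fold, 2.35-fold and 2.31-fold. HDAC4 was 5.16-fold lower. No sirtuin gene that reached 5 CPM in a library passed 2-fold in either direction. All 3 mitochondrial sirtuins had lower values with CB-5083. Among them SIRT4 lay under 5 CPM in both libraries, with 1 count with CB-5083 and 13 with DMSO. A log2 ratio below 0 was common: 5664 of all 11964 genes with a mean of at least 1 CPM had one.

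Levels are in CPM, a gene's count scaled to library size and adjusted between the libraries by TMM (a trimmed mean of gene ratios). A gene was called higher or lower when log2 of (CB-5083 CPM + 1) over (DMSO CPM + 1) was at least 1 in size, in either direction, with 5 CPM or more in 1 of the libraries. Folds are given without the added 1, with a 95% exact interval that covers counting error only. Among the 43 members, 29 reached 5 CPM in a library, 1 of them (KDM6B) only with CB-5083 and 2 (HDAC4 and SIRT3) only with DMSO, and 14 did not. Of the 29, 4 were higher, against 7.22% of all 9543 genes at that level, and 1 was lower, against 4.91%. At 1.5-fold, 7 were higher (17.4% of all genes) and 5 lower (12.5% of all genes), and the other 17 lay within 1.5-fold. The counting interval lay above a fold of 1 for 15 members, below it for 13 and included it for 15, at a depth of 31997724 estimated counts with CB-5083 and 29273741 with DMSO. These interval counts were not made over all genes, so they show nothing particular to the members. In these bulk libraries, fewer cells that express a gene and less of its RNA per cell cannot be told apart.

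**Figure D1:**
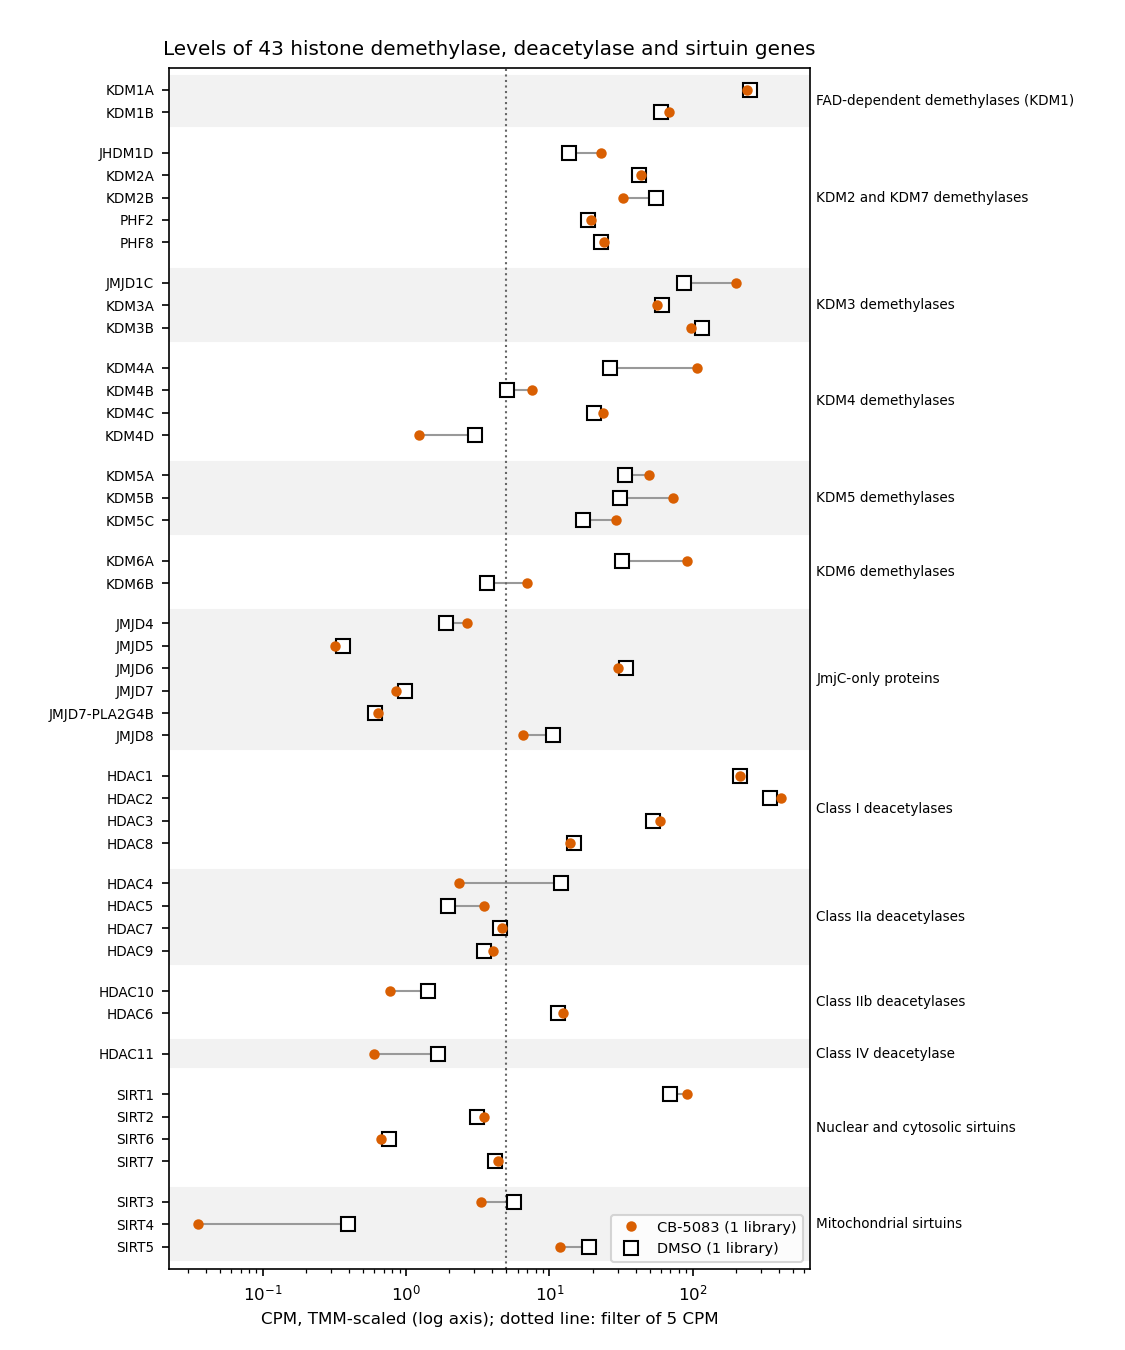
Levels of the 43 genes in CPM on a log axis, grouped by class, with the CB-5083 library as filled circles and the DMSO library as open squares. KDM4A (107 against 26.5 CPM) and HDAC4 (2.34 against 12.1 CPM) show wide gaps in opposite directions, while the points of HDAC1, KDM1A and KDM2A nearly coincide.

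Stress response genes, used as a check of the treatment, were higher with CB-5083. HSPA5, the main chaperone of the endoplasmic reticulum, was at 21303 CPM with CB-5083 and 1282 CPM with DMSO, and DDIT3, which encodes the stress factor CHOP, at 351 and 6.16 CPM. HERPUD1, ATF3 and TRIB3 were 18.1-fold, 22.8-fold and 9.81-fold higher, and VCP itself 1.81-fold. Of 10 colorectal epithelium markers, 6 were measured at a mean of at least 1 CPM, among them EPCAM at 501 and 433 CPM and CDH1, past 2-fold, at 243 and 66.7 CPM, whereas CDX1 was at 0 in both libraries and VIL1 and LGR5 at 0 with CB-5083 and 0.03 CPM with DMSO. Of the fibroblast markers, only COL1A1 was measured at that level (3.48 and 2.52 CPM), and none of the leukocyte markers was, with PTPRC at 0 in both libraries.

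Among the demethylases, KDM4A had the highest ratio. It encodes a JmjC enzyme that removes methyl groups from H3K9 and H3K36. KDM4A (hg19, chromosome 1, positions 44115797 to 44171189) was at 107 CPM with CB-5083 (3044 estimated counts) and 26.5 CPM with DMSO (873 estimated counts), a 4.04-fold difference (3.75 to 4.36). Of the 9543 genes at 5 CPM, 121 had a higher log2 ratio. The other members of the KDM4 group lay within 2-fold or under the filter. KDM4B was at 7.53 and 5.04 CPM (1.49-fold, 1.21 to 1.84) and KDM4C at 23.5 and 20.4 CPM (1.15-fold, 1.03 to 1.28). KDM4D, which lacks the reader domains of its relatives, went the other way, at 1.23 CPM with CB-5083 and 3.004 CPM with DMSO (2.44-fold lower, 1.64 to 3.70), under the filter in both libraries. Within the group KDM4A therefore took a larger share with CB-5083: the summed level was 139 CPM with CB-5083 and 54.9 CPM with DMSO.

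KDM6A and KDM6B, which remove the repressive mark H3K27 trimethylation and so oppose Polycomb, both had higher values with CB-5083. KDM6A (UTX), on chromosome X from 44732423 to 44971845, was at 90.6 CPM with CB-5083 and 32.0 CPM with DMSO (2.83-fold, 2.63 to 3.04). KDM6B (JMJD3), a stress- and cytokine-inducible enzyme, was at 6.97 and 3.67 CPM (1.90-fold, 1.51 to 2.40). Its log2 ratio with the added 1 was 0.77, under the threshold, and 0.49 with library totals. KDM6B passed the filter through the CB-5083 library alone. Per kilobase of the longest annotated transcript, KDM6A was the higher of the pair with both treatments, at 15.3 against 1.04 CPM per kilobase for KDM6B with CB-5083 and 5.41 against 0.547 with DMSO. The methyltransferase EZH2, which sets the mark these enzymes remove, was at 145 CPM with CB-5083 and 120 CPM with DMSO, a log2 ratio of 0.26.

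The KDM5 enzymes, which erase the promoter mark H3K4 trimethylation, had higher values with CB-5083 in all 3 members, to different extents. KDM5B, on chromosome 1 from 202696532 to 202777549, was at 73.3 CPM with CB-5083 and 31.2 CPM with DMSO (2.35-fold, 2.18 to 2.54). KDM5C was at 29.1 and 17.2 CPM (1.69-fold, 1.52 to 1.89). KDM5A was at 49.4 and 33.8 CPM (1.46-fold, 1.35 to 1.58). The intervals of the 3 folds do not all overlap: that of KDM5B lies above the other two. All 5 measured KDM5 and KDM6 genes kept a positive log2 ratio when the libraries were scaled by their totals (0.20 to 1.14). KDM5C and KDM6A have close copies on chromosome Y that are not analysed here, so reads shared with these copies add an uncertainty to both values.

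The upstream sequences of the 3 demethylase genes with the highest ratios are shown. Each is the 250 bases before the gene's start in RefSeq (GRCh38.p14, another build than that of the files), written on the gene's strand, at chr1:43649899-43650148 (plus strand) for KDM4A, chrX:44872938-44873187 (plus strand) for KDM6A and chr1:202808422-202808671 (minus strand) for KDM5B. Capitals mark CCAAT, the core of the CCAAT box, and ACGTG, a core shared by E-box and stress response elements, on either strand (CCAAT reads ATTGG on the other strand, and CACGTG holds ACGTG on both).
KDM4A: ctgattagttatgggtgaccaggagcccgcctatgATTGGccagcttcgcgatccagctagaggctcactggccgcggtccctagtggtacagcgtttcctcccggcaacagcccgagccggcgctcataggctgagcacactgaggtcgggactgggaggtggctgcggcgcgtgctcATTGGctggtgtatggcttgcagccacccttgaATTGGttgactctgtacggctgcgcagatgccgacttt
KDM6A: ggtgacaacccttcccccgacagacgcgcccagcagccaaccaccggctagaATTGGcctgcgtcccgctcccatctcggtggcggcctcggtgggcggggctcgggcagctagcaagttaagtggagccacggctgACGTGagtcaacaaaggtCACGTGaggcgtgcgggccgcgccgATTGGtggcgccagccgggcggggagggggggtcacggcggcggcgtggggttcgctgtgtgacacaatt
KDM5B: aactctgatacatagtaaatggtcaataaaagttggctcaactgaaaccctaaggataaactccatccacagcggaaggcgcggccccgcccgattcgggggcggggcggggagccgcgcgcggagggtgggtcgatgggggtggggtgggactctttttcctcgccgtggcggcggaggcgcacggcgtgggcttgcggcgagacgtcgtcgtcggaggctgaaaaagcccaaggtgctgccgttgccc
KDM4A held 3 matches to CCAAT, whose first bases lie 215, 71 and 38 bases before the start. KDM6A held 2 matches to CCAAT, and its ACGTG matches start 113, 95 and 94 bases before the start, of which the last pair are the opposite strands of one CACGTG. KDM5B held neither. A CCAAT match was present in 14 of the 40 members that had an upstream sequence (35%) and in 33% of 27305 upstream regions of the same length, and ACGTG in 9 of 40 (22.5%) and 18.7%. The C/EBP-ATF element, searched as TGATGNAA on both strands, was in none of the 40 and in 3.19% of all regions, and the ER stress response element (CCAAT and CCACG with 9 bases of any kind between them), in none and in 0.0806%. TGACGTCA was in 1 of 40 (1.77% of all regions) and CTTTGA in 1 of 40 (11.4%). The median GC content was 67% for the members and 58% for all regions, and the shares were not adjusted for it. JMJD7 and JMJD7-PLA2G4B have the same upstream sequence and were both counted. For 34 of the 40, the 3 shown among them, bases just after the start were found in an annotated transcript of the gene. For the rest, which include HDAC4 and SIRT1, they were not, so the start used is less certain. CCAAT was added to the search after the sequences had been read, and a match is a description of letters, not of binding.

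Of the KDM3 group, which acts on H3K9 mono- and dimethylation, one member was higher. JMJD1C, on chromosome 10 from 64926988 to 65225722, was at 202 CPM with CB-5083 and 87.6 CPM with DMSO (2.31-fold, 2.21 to 2.42). KDM3A, known as a hypoxia-inducible member, was at 56.2 and 60.98 CPM (1.08-fold lower, 1.02 to 1.16). KDM3B was at 97.4 and 117 CPM (1.2-fold lower, 1.14 to 1.26). JMJD1C and its relatives thus lay on opposite sides of a fold of 1 with intervals that do not meet.

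In the KDM2 and KDM7 group the values parted too. JHDM1D (KDM7A), which acts on H3K9 and H3K27 dimethylation, was at 23.0 CPM with CB-5083 and 13.7 CPM with DMSO (1.68-fold, 1.49 to 1.89). KDM2B, an H3K36 demethylase that brings a variant Polycomb complex to CpG islands, was at 32.7 and 55.5 CPM (1.69-fold lower, 1.56 to 1.83). KDM2A was at 43.9 and 42.2 CPM, PHF2 at 19.7 and 18.4 CPM and PHF8 at 24.2 CPM with CB-5083 and 23.0 CPM with DMSO. All 3 intervals include a fold of 1. The 2 FAD-dependent enzymes, KDM1A (LSD1) and KDM1B, were at 241 against 252 CPM and at 68.9 against 60.3 CPM. Of the proteins that hold little more than a JmjC domain, JMJD8, a protein of the endoplasmic reticulum lumen, was at 6.51 CPM with CB-5083 and 10.6 CPM with DMSO (1.63-fold lower, 1.36 to 1.96). JMJD6, which modifies splicing factors by lysine hydroxylation, was at 30.1 and 34.3 CPM. JMJD4 was at 2.67 CPM with CB-5083 and 1.91 CPM with DMSO, and JMJD5 (KDM8) at 0.317 and 0.364 CPM from 9 and 12 counts. JMJD7 was at 0.855 and 0.980 CPM and the read-through gene JMJD7-PLA2G4B at 0.638 and 0.604 CPM. These 2 share exons, which leaves their values uncertain, and all 4 intervals include a fold of 1.

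**Figure D2:**
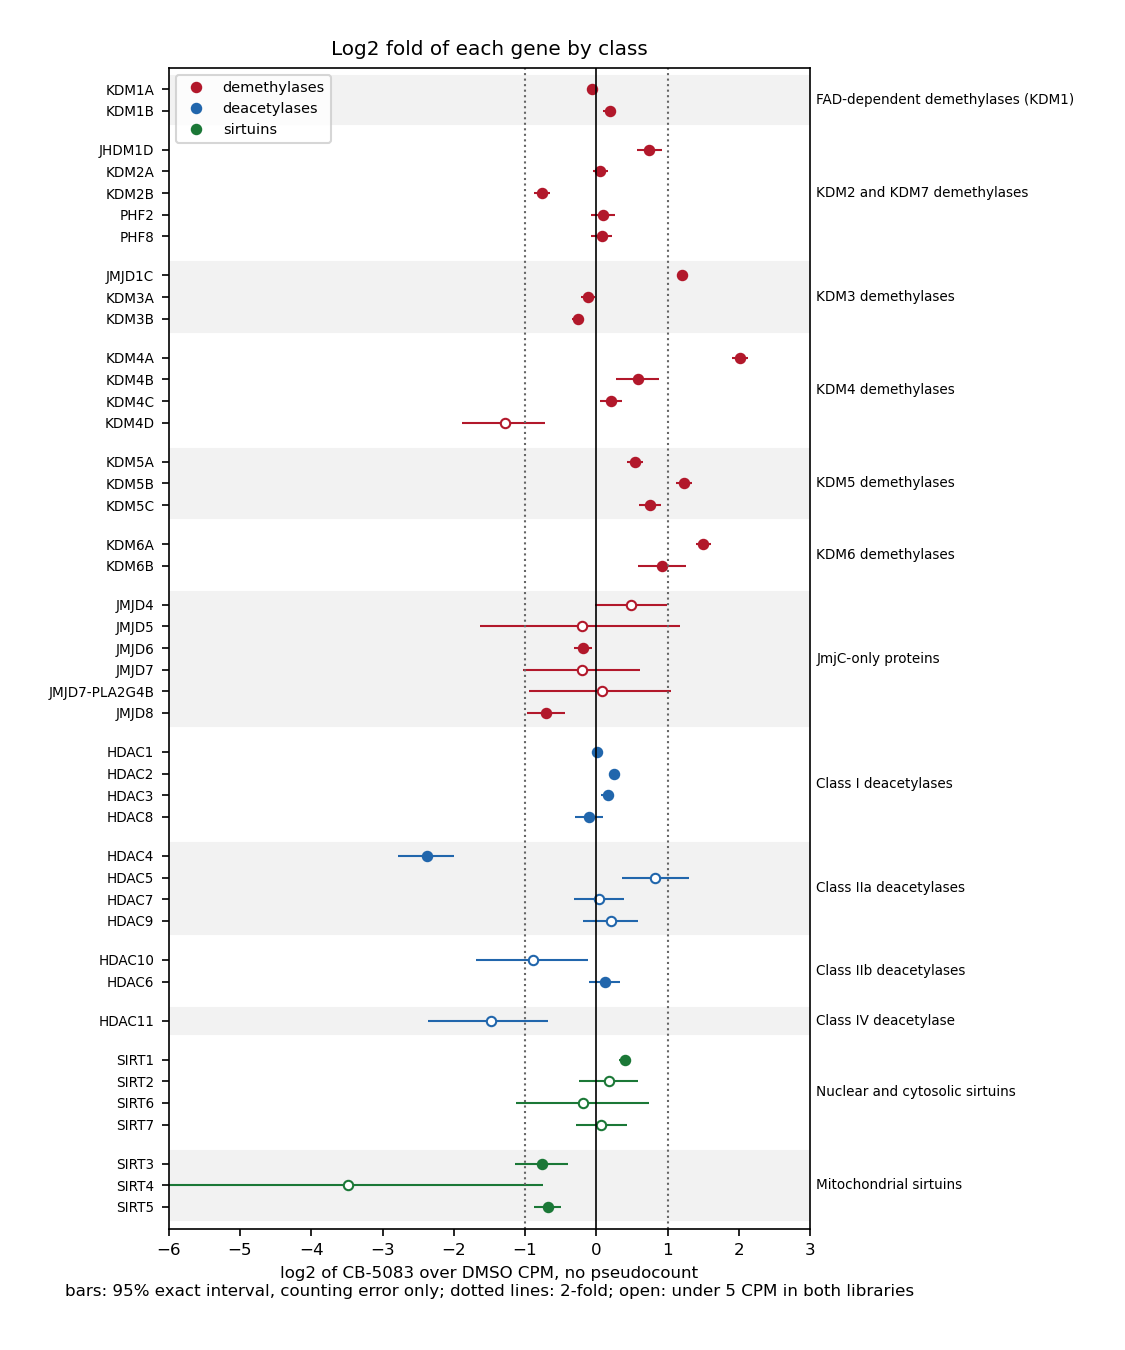
Log2 of CB-5083 over DMSO CPM for each gene, without the added 1, with 95% exact intervals for counting error as bars, open circles for genes under 5 CPM in both libraries and dotted lines at 2-fold. The 3 KDM5 and both KDM6 genes lie right of 0, the class I deacetylases lie near 0, and HDAC4 and all 3 mitochondrial sirtuins lie left of it; the bar of SIRT4 runs past the left edge.

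HDAC4 had the lowest ratio among the 6 deacetylases that reached 5 CPM in a library. It encodes a class IIa HDAC, a corepressor of MEF2 factors. HDAC4, on chromosome 2 from 239969864 to 240323346, was at 2.34 CPM with CB-5083 (66.5 estimated counts) and 12.1 CPM with DMSO (398 estimated counts), 5.16-fold lower (4.0 to 6.86). Its log2 ratio was -1.97, and 37 of the 9543 genes had a lower one. It reached the filter through the DMSO library alone. The other class IIa genes did not share this. HDAC5 was at 3.48 CPM with CB-5083 and 1.97 CPM with DMSO (1.77-fold higher, 1.28 to 2.45). HDAC7 was at 4.68 and 4.55 CPM and HDAC9 at 4.05 and 3.52 CPM, both with intervals that include a fold of 1. All of these 3 lay under the filter. Per kilobase of the longest transcript, HDAC4 was at 0.26 with CB-5083 and 1.34 with DMSO, and HDAC7 at 1.14 and 1.11, so that HDAC4 had the higher level of this pair with DMSO and the lower one with CB-5083. The same order held with the median transcript length. The class IIa genes summed to 14.5 CPM with CB-5083 and 22.1 CPM with DMSO.

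Class I, the core of the nuclear corepressor complexes, differed little. HDAC1 was at 215 CPM with CB-5083 and 214 CPM with DMSO, and HDAC2 at 413 and 347 CPM (1.19-fold, 1.16 to 1.22). HDAC3, the enzyme of the NCOR complex, was at 59.5 and 53.3 CPM (1.12-fold, 1.04 to 1.19), and HDAC8 at 13.9 and 14.9 CPM. With library totals all 4 log2 ratios were negative, from -0.42 to -0.09. In class IIb, HDAC6, the cytoplasmic tubulin deacetylase that binds ubiquitin and also p97, was at 12.4 and 11.4 CPM (1.09-fold, 0.936 to 1.26). HDAC10, a polyamine deacetylase, was at 0.774 and 1.43 CPM from 22 and 47 counts (1.84-fold lower, 1.09 to 3.21). HDAC11, the sole class IV enzyme and a fatty acid deacylase, was at 0.598 and 1.67 CPM from 17 and 55 counts (2.79-fold lower, 1.60 to 5.13), under the filter.

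Among the sirtuins, all 3 mitochondrial members had lower values with CB-5083, with intervals that exclude a fold of 1. SIRT5, a desuccinylase, was at 11.8 CPM with CB-5083 and 18.9 CPM with DMSO (1.60-fold lower, 1.40 to 1.84). SIRT3, the main mitochondrial deacetylase, was at 3.34 and 5.67 CPM (1.70-fold lower, 1.32 to 2.20). Of the genes at 5 CPM, 11.6% had a lower log2 ratio than SIRT3 and 11.0% a lower one than SIRT5. SIRT4 was listed from 1 and 13 counts, a ratio of 0.0892 with an interval of 0.00210 to 0.594. Its levels of 0.0352 and 0.394 CPM lay under the filter. All 3 stayed lower under each scaling tried, with log2 ratios of -0.89, -0.49 and -0.96 for SIRT3, SIRT4 and SIRT5 by library totals. Library totals and upper quartile scaling lowered the log2 ratio of all 43 members, so they could not have reversed a lower value. Median of ratios raised the ratio of SIRT5 only to -0.63. SIRT1, the nuclear NAD-dependent deacetylase, was at 91.3 CPM with CB-5083 and 69.0 CPM with DMSO (1.32-fold, 1.25 to 1.40). Its log2 ratio of 0.40 fell to 0.06 with library totals. SIRT2, a mainly cytosolic deacetylase, was at 3.51 and 3.11 CPM. SIRT6, which acts on chromatin, was at 0.669 and 0.759 CPM, and the nucleolar SIRT7 at 4.40 and 4.19 CPM. These 3 lay under the filter, with intervals that include a fold of 1. SIRT1 was the highest sirtuin per kilobase of the longest transcript with both treatments, at 22.3 with CB-5083 and 16.9 with DMSO.

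**Figure D3:**
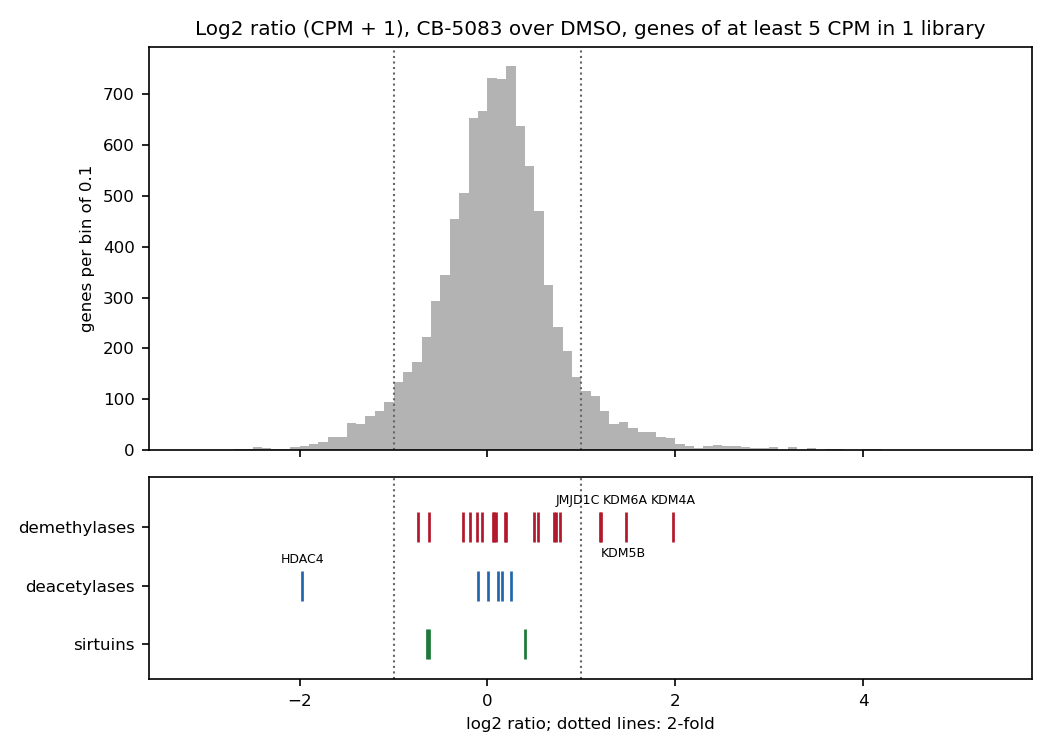
Histogram of the log2 ratio of CPM + 1 over the 9543 genes that reached 5 CPM in a library, in bins of 0.1, and below it a tick for each of the 29 members at that level, by family. The 4 named demethylases lie right of the dotted 2-fold line and HDAC4 left of the other; all other ticks lie between the lines.

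Over members with a mean of at least 1 CPM, the median log2 ratio was 0.19 for 22 demethylases, 0.03 for 11 deacetylases and 0.06 for 5 sirtuins, beside 0.04 for all 11964 genes at that level. Each of the 4 medians turned negative with library totals, which moved the median of all genes by -0.31. Within the families, KDM4A and KDM4D went in opposite directions, as did HDAC4 and HDAC5, with KDM4D and HDAC5 under the filter. Single genes spread more than medians do, so these gaps are not set against those between the medians. Library totals also took JMJD1C (0.86) and KDM5B (0.87) below the 2-fold threshold and KDM2B (-1.08) past it, leaving 2 members higher (3.86% of all genes) and 2 lower (10.3%). KDM4A, KDM6A and HDAC4 passed under every alternative that was run. For HDAC4 this was little of a check. Library totals, upper quartile scaling and smaller pseudocounts could only lower its ratio further, and median of ratios left it at -1.96.

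The enzymes that write these marks and the partners of these erasers were examined as lists. Of all genes at 5 CPM in a library, 7.22% were higher and 4.91% lower. None of 13 histone acetyltransferases passed 2-fold, with KAT7 at 127 CPM with CB-5083 and 73.1 CPM with DMSO (log2 ratio 0.79) and KAT8 at 4.86 and 8.89 CPM (-0.76). Of 30 histone methyltransferases at 5 CPM, 1 was higher and none lower. That gene was SUV420H1, which methylates H4K20, at 139.97 CPM with CB-5083 and 57.8 CPM with DMSO (2.42-fold, 2.29 to 2.56), and its log2 ratio was 0.92 when library totals set the scale. The medians of the 2 lists were 0.34 and -0.07, and with library totals 0.01 and -0.40.

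Of 32 corepressor partners of the deacetylases and KDM1A, 1 was lower and none higher, beside 4.91% and 7.22% of all genes at 5 CPM. TRERF1, a component of the mitotic deacetylase complex with HDAC1 and HDAC2, was at 2.32 CPM with CB-5083 and 18.4 CPM with DMSO (7.91-fold lower, 6.12 to 10.3). TRERF1 reached the filter through the DMSO library alone. Among 13 partners and kinases of the class IIa enzymes, 2 were higher and 1 lower, beside the same shares of all genes. MEF2D, a transcription factor that HDAC4 binds, was at 29.1 and 13.0 CPM (2.23-fold, 1.99 to 2.51), and SIK3, a kinase that phosphorylates class IIa HDACs, at 32.7 and 14.8 CPM (2.21-fold, 1.98 to 2.47). MEF2C, another such factor, was at 3.80 CPM with CB-5083 and 11.4 CPM with DMSO (2.99-fold lower, 2.40 to 3.73). MEF2C too passed the filter only with DMSO. MEF2A, a further MEF2 factor, was at 117 and 58.02 CPM (2.02-fold, 1.90 to 2.13), and missed the call narrowly once 1 was added. With library totals the log2 ratios of MEF2D and SIK3 were 0.78 and 0.77, under the threshold, that of MEF2A was 0.66 and that of MEF2C -1.66.

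Of 7 genes of NAD synthesis and use at 5 CPM, none was called higher or lower. NMNAT1, which makes NAD in the nucleus, was at 8.63 CPM with CB-5083 and 17.7 CPM with DMSO. Its fold without the added 1 was 2.05-fold lower (1.76 to 2.39), and its log2 ratio with the added 1 was -0.95, short of the threshold, and -1.27 with library totals. NAMPT, the rate-limiting enzyme of the NAD salvage pathway, was at 389.9 and 283 CPM (0.46). Of 22 other oxygenases that use 2-oxoglutarate, 1 was lower and none higher, beside 4.91% and 7.22% of all genes at 5 CPM. The lower gene was EGLN3, a HIF prolyl hydroxylase, at 2.04 and 6.58 CPM (3.23-fold lower, 2.41 to 4.39). EGLN3 reached the filter through the DMSO library alone. The median of this list was -0.04, against 0.27 for the 20 JmjC members measured at a mean of at least 1 CPM. With library totals these medians were -0.34 and -0.02. The groups were split by gene symbol, so they do not set proteins with a JmjC domain against those without one.

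**Figure D4:**
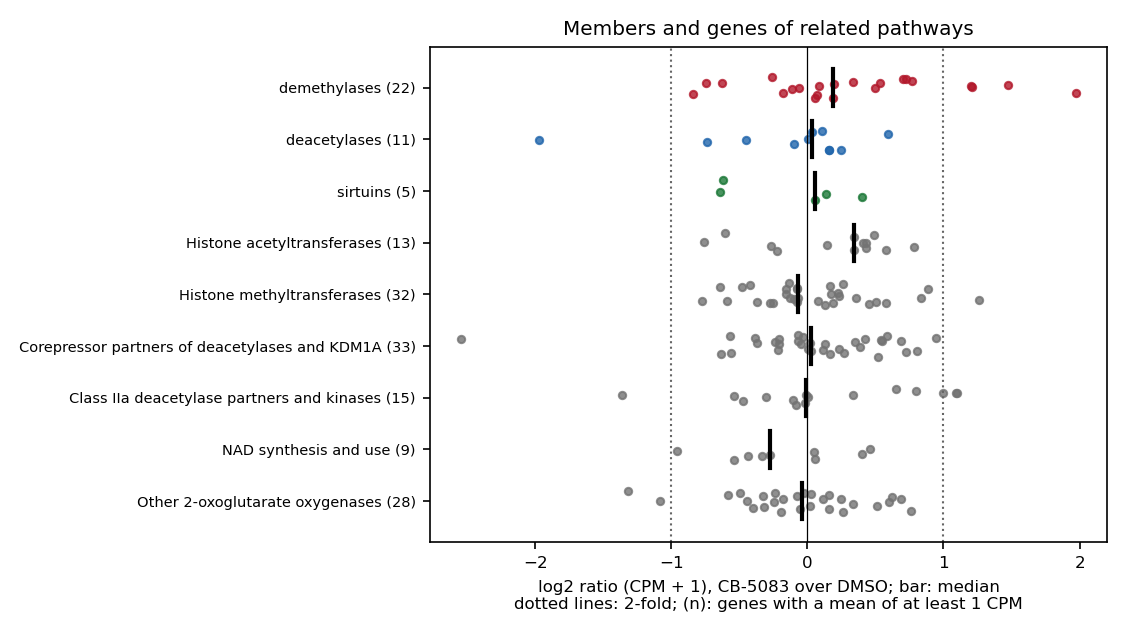
Log2 ratio of CPM + 1 for the members by family (colours) and for 6 lists of related genes (grey), 1 point per gene with a mean of at least 1 CPM, with the median as a bar and dotted lines at 2-fold. Most points of each list lie between the dotted lines. Right of them lie 4 of 22 demethylases, 2 of 15 class IIa partners and kinases and 1 of 32 methyltransferases. Of all genes at 5 CPM in a library, 7.22% were higher.

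Of the 43 members, 15 overlap the span of another gene of the table in hg19. The libraries were stranded, but no source used here says whether the counting used strand. The genes that overlap the members past 2-fold were low: LOC100132774 over KDM4A was at 0.133 CPM with CB-5083 and 0.785 CPM with DMSO, AX747628 and LOC84989 over JMJD1C lay under 0.5 CPM in both libraries, and MGC16025 over HDAC4 was at 0 in both. Genes that overlap other members, such as PSMD13 and RIC8A over SIRT3 and CCDC77 over KDM5A, were not examined in this way. Those members' values keep this uncertainty.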

How the data were processed

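The deposited signal of each gene had been scaled by the authors within each library: RSEM 1.2.0 and hg19 are named in the submitters' processing notes, and no source used here names an aligner. From the values, the 75th percentile over genes lay at 999.89 with CB-5083 and 999.73 with DMSO. Most low values were multiples of a step of 1.175 (CB-5083) and 1.079 (DMSO). Division by these steps gave estimated counts, of which 77.1% and 76.6% of the low values (up to 5 counts) and 55.9% and 55.1% of all values above 0 were whole within 0.02. The authors' deposited log2 ratio equals log2 of one deposited value over the other, to within 2.44e-09.

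CPM were computed with TMM factors of 0.888 (CB-5083) and 1.13 (DMSO). Folds have 95% Clopper-Pearson intervals, which cover counting error only. A value of 0 allows up to 3 counts, or 0.106 CPM with CB-5083 and 0.091 CPM with DMSO. No test was made, since each group was 1 library. Genes are named as in the files, with RefSeq names for 2 renamed members. Transcript lengths came from GENCODE 29. All members are named; of each related list, genes past 2-fold, or else the 2 largest ratios, are named, and EZH2 and MEF2A were added after their values were seen. Members and lists were chosen with earlier results of these data known. Scripts were tested on simulated data. Alternatives varied the scaling, pseudocount, filter, threshold and source of the ratio. Tools were scipy 1.17.1, numpy 2.4.6, pandas 2.3.3, Python 3.11.15 and matplotlib 3.10.9.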

Additional observations from a re-analysis of the deposited data

How the results depend on the processing

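With library totals in place of TMM, 2 members passed 2-fold upward and 2 downward, and the median log2 ratio was -0.14 for demethylases, -0.25 for deacetylases and -0.22 for sirtuins. A 1.5-fold threshold gave 7 higher and 5 lower. With upper quartile scaling the medians of deacetylases and sirtuins were -0.042 and -0.016, and in the authors' deposited log2 ratio -0.050 and -0.020. For sirtuins the median was -0.12 at 10 CPM in 1 library and -0.076 with no filter. All other settings left 4 members higher and 1 lower, and no member past 2-fold changed sign. Of the 43 log2 ratios, library totals left 15 inside their counting interval and upper quartile scaling 32. No paired analysis was possible because each treatment was 1 library, and for the same reason no library could be left out. Depth limits the genes with few counts, such as SIRT4, JMJD5, SIRT6 and HDAC11.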
